A study of Mus musculus with 40 samples.

Results

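The cytosolic ribosomal protein genes were followed through a set of CREB-family knockouts in mpkCCD cells, an immortalized mouse line from the kidney collecting duct. Members were taken by symbol: every gene named Rpl or Rps with a number and at most 1 further letter (a, x or l), together with Rplp0, Rplp1, Rplp2 and Rpsa, while names with -ps were left out. The rule found 83 of the 55414 genes in the table, of which 51 belong to the large subunit and 32 to the small one. By annotation 80 of them are protein coding, and Rps4l, Rpl6l and Rpl32l are processed pseudogenes.

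The study asked how transcription factors of the CREB family take part in vasopressin control of Aqp2, the water channel gene of collecting duct cells. All 22 libraries came from polarized mpkCCD cells kept for 72 hours in 0.1 nM dDAVP, an analog of vasopressin, so no library here is without the hormone. The unmodified control clones (11 libraries) carry no edit. The edited groups are labelled ATF1-KO (5 libraries), ATF1/CREB1-KO (3 libraries) and ATF1/CREB1/CREM-KO (3 libraries). A further 18 samples of the series were not analysed here. The labels number the libraries in 3 runs: 1 to 10 hold control clones 1 to 5 and ATF1-KO, 11 to 16 hold control clones 6 to 8 and ATF1/CREB1-KO, and 17 to 22 hold control clones 9 to 11 and ATF1/CREB1/CREM-KO. Each knockout label was set beside the control clones in its run. The labels do not call the runs batches, and they do not say whether knockout replicates are separate edited clones or separate cultures of 1 clone. The p-values therefore measure only the spread between these libraries.

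Ribosomal proteins are the protein part of the cytosolic ribosome, and cells need almost all of them in equal amounts. Their mRNAs are among the most abundant in a growing cell and mostly start with a C followed by a run of pyrimidines, the TOP motif, through which mTOR and LARP1 control their translation. Free Rpl5 and Rpl11 also bind the p53 regulator Mdm2, which links ribosome assembly to cell growth arrest. CREB, ATF1 and CREM bind the cAMP response element (CRE), and protein kinase A activates them downstream of the vasopressin receptor.

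Values are TPM, which divides by transcript length and scales each library to 1 total, so a member's value is a share of the RNA measured and its read depth is unknown. Of 10 principal cell markers, 5 (Aqp2, Avpr2, Scnn1a, Hsd11b2 and Fxyd4) were at 1 TPM or above in all 22 libraries, while the principal cell factors Elf5 and Tfap2b did not reach 1 TPM in any. Of 6 intercalated cell markers only Aqp6 reached 1 TPM. Mean Atf1 and Creb1 mRNA was lower in every group whose label names them than in its own control clones. Atf1 values overlapped in ATF1/CREB1-KO (15.06 to 23.73 TPM against 23.32 to 26.22) and in ATF1/CREB1/CREM-KO (23.67 to 40.81 against 39.78 to 40.52). Crem mRNA was higher in the ATF1/CREB1/CREM-KO libraries (30.5 ± 4.02 against 22.7 ± 2.48 TPM, SD, n = 3 each). Its mean was also higher under the labels that do not name CREM. These were ATF1/CREB1-KO (27.5 ± 16.7 against 10.9 ± 1.95 TPM) and ATF1-KO (23.55 ± 3.68 against 17.69 ± 4.57 TPM). The Crem mRNA thus does not show the edit, nor does Atf1 mRNA in every library. Directions below rest on the labels. Aqp2 was 15.5 ± 0.499 TPM in the ATF1/CREB1/CREM-KO libraries and 1516 ± 825 in their control clones.

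In the 8 control clones of the first and the last run the family made up 2.61% to 4.03% of TPM (3.26% ± 0.484, SD). The median level of the members at 1 TPM or more was 316 TPM, and 18 members held at least as much as all the others together. Among the highest was Rpl32 (ENSMUSG00000057841, chr6:115805505-115808747, coordinates in GRCm38), a large-subunit protein gene, at 1489.9 ± 248 TPM (SD, n = 8), with the zinc-finger protein gene Rps27 at 1302 ± 360.2. Rpl41, which encodes the shortest of the ribosomal proteins, had 947 ± 194 TPM and Rps14 929.7 ± 119. Rpl27a was the lowest member above 10 TPM, at 48.8 ± 10.6, and Rpl11 (88.5 ± 18.5) and Rpl5 (111 ± 26.9) also stood near the bottom. Libraries ranked the members alike: across the 78 members averaging 1 TPM or more, pairs of libraries of those 2 runs correlated at 0.917 to 0.998 (Pearson, log2 scale, 120 pairs that share the same genes).

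Paralogs of tissue-restricted use were at or near 0. The muscle form Rpl3l never passed 0.28 TPM and the testis form Rpl10l was above 0 in 1 library only, at 0.09. Rpl39l and the pseudogene Rps4l were listed at 0 in all 22 libraries. Rpl32l and Rpl6l reached at most 3.37 and 3.42 TPM. Rps27l, a paralog of Rps27 known as a p53 target, was by contrast abundant, at 591 ± 76.4 TPM in the 8 control clones. Sequence shared between these genes, their parents and the many processed pseudogenes can split reads, so levels of near-identical copies are uncertain.

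**Figure D1:**
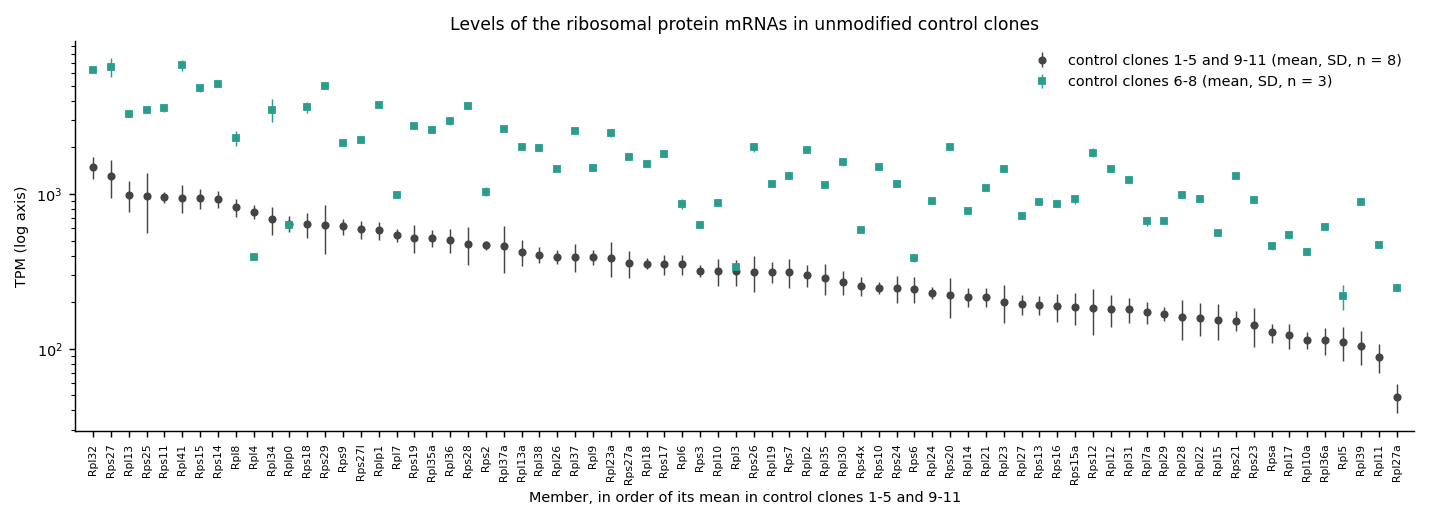
Mean TPM (log axis) with SD of ribosomal protein genes above 10 TPM in control clones 1 to 5 and 9 to 11 (circles, n = 8) and control clones 6 to 8 (squares, n = 3), in order of the circles. Almost all squares lie above their circles, but the square of Rpl4 lies below and those of Rplp0 and Rpl3 on their circles.

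Because CREB-family factors bind the CRE, the promoters of the members were read for it (RefSeq, GRCm38.p6, 250 bases before to 50 after each start). Of the 83 members 61 matched, with 73 windows. The full element TGACGTCA, which reads the same on both strands, lay in 5 of 73 member windows (6.85%) and in 1.79% of all 32851 windows. These 5 genes and Rps12, the member with the largest fall among called members below, are shown from 140 bases before the start to 20 after it. Capitals mark the full CRE or its short core (TGACG or its reverse CGTCA):
Rpl13, chr8:123102210-123102369, plus strand: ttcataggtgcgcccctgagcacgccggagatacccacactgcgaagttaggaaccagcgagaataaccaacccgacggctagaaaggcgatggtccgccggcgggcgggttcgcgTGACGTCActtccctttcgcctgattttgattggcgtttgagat
Rpl18, chr7:45717931-45718090, plus strand: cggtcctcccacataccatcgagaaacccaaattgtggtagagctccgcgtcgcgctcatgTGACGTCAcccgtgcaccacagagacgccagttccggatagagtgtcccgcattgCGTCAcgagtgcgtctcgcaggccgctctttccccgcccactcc
Rpl26, chr11:68901426-68901585, plus strand: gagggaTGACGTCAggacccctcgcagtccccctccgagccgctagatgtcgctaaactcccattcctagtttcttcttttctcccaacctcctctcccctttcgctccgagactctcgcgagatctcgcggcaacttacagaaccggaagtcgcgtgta
Rpl27a, chr7:109519055-109519214, plus strand: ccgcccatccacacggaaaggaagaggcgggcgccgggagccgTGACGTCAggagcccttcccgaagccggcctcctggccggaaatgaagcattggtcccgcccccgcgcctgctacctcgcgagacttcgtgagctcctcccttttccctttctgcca
Rps9, chr7:3703901-3704060, plus strand: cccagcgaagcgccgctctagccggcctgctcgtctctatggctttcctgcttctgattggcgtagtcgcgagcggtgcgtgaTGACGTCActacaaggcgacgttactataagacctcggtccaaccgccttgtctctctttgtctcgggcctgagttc
Rps12, chr10:23787190-23787349, minus strand: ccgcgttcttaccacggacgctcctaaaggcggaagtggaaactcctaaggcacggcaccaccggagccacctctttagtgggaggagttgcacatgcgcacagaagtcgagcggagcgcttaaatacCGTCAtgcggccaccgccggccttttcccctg
The element starts at position -24 in Rpl13, -57 in Rps9, -79 in Rpl18, -97 in Rpl27a and -134 in Rpl26, where -1 is the base before the start. In Rps12 the capitals are a short core only, at -12.

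The short core, counted on both strands and including full elements, lay in 42.5% of member windows and 20.8% of all. The ETS core CCGGAAG, bound by GABP, lay in 35.6% against 8.86%. The YY1 core ATGGCGG was in 17.8% against 4.06%, and the TATA box letters TATAAA in 9.59% against 13.6%. A C stood at the annotated start in 28.8% of member windows and 16.3% of all. These are matches of letters, not measured binding.

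In the libraries labelled ATF1-KO no ribosomal protein gene passed the test. The family held 2.81%, 2.94%, 2.61%, 3.01% and 3.45% of TPM in control clones 1 to 5 and 3.21%, 3.31%, 3.35%, 3.21% and 3.28% in the 5 ATF1-KO libraries. The knockout libraries lay within the range of the control clones, which varied more (SD 0.309 against 0.0613 percentage points). By limma on log2(TPM + 1), 0 of 77 members tested were called at an adjusted p under 0.05, where 0% of all 13318 genes were called. At an unadjusted p under 0.05 there were 10 members, all of them higher, among 1014 genes. The median change of the members was 0.15 and that of all genes -0.003, and 71 of 77 members against 49% of all genes had a positive change. The members' median was 0.09 without control clone 3, and stayed between 0.15 and 0.21 when any other single library was left out. The member with the largest change was Rps28, a small-subunit protein gene at the mRNA exit site, with 0.41 (SE 0.20, limma adjusted p = 0.689). It stood at 428, 452, 215, 429 and 501 TPM in control clones 1 to 5 and at 621, 524, 491, 494 and 464 TPM in the ATF1-KO libraries. The groups overlapped, and control clone 3 was the lowest by far.

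Rpl12, which sits at the base of the ribosomal stalk, was the single member whose ATF1-KO libraries all lay above all their control clones, against 0.563% of all genes; no member did the reverse (0.736% of all genes). It stood at 136, 163, 119, 176 and 176 TPM in control clones 1 to 5 and 198, 182, 181, 185 and 186 TPM in the ATF1-KO libraries. Its change of 0.29 (SE 0.11, limma adjusted p = 0.618) did not pass the adjusted test.

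After subtracting the family's mean from each library, again 0 of 77 members departed from it (0% of all genes called; 0 members at an unadjusted p under 0.05). The largest positive departures were 0.26 for Rps28, 0.19 for Rpl28, 0.18 for Rps29 and 0.15 for Rps12. The largest negative ones were -0.18 for Rpl7, -0.18 for Rpl35a, -0.17 for Rpl24 and -0.16 for Rpl26. The qPCR reference genes Rpl13a and Rps18 differed by 0.09 (SE 0.08, limma adjusted p = 0.781) and 0.26 (SE 0.08, limma adjusted p = 0.598).

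In the libraries labelled ATF1/CREB1-KO the family's share was lower than in control clones 6 to 8 in every library. The control clones were at 14.98%, 14.18% and 15.06% of TPM and the knockout libraries at 13.03%, 12.48% and 7.05%. The ratio of means was 0.736, and 0.865 without replicate 3, which stood apart from the other 2. No member passed the test: limma called 0 of 79 members, and 0.0715% of all 12579 genes (0.0318% higher, 0.0397% lower). At an unadjusted p under 0.05 there were 29 members, all lower, beside 765 of all 12579 genes lower and 434 higher. The median change was -0.50 for the members and -0.03 for all genes, and 78 of 79 members against 53.1% of all genes had a negative change. Without replicate 3 the members' median was -0.29, and without any other single library it lay between -0.64 and -0.49. The groups did not overlap, with the knockout lower, for 56 of 79 members (70.9%), against 12.4% of all genes, and with the knockout higher for 0, against 6.67%. A fit over all 22 libraries, which estimates the spread from every group, called 18 members lower in this comparison. Its share of all genes called is not given here. Its single spread may be too small for ATF1/CREB1-KO, where members varied most (median within-group SD 0.473 on the log2 scale). Rpl6l and Rpl32l passed the filter on low values in this run; Rpl32l did so through the control clones, where it is high, and the other 77 were well above it.

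Rps12, a protein of the small subunit's head, had the largest difference. Its TPM was 1875, 1708 and 1961 in control clones 6 to 8 and 1291, 1252 and 393 in the ATF1/CREB1-KO libraries. All 3 knockout libraries lay below the control clones, replicate 3 lowest. The change was -1.10 (SE 0.44, limma adjusted p = 0.502). Rpl39, which lines the exit tunnel of the large subunit, stood at 902, 895 and 878 TPM in the control clones and 614, 608 and 284 in the knockout, again without overlap. Its change of -0.91 (SE 0.31, limma adjusted p = 0.461) did not pass either. Rplp0, the core of the stalk and a common reference gene, had 615, 673 and 604 TPM in the control clones and 594, 596 and 936 in the knockout. It was the only member with a positive change, 0.13 (SE 0.22, limma adjusted p = 0.859), with replicate 3 far above the others.

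For Rps12, Rpl39 and Rpl4, replicate 3 of ATF1/CREB1-KO lay between the other knockout libraries and the control clones of the other runs. This was not particular to these genes. The family's share in replicate 3, 7.05%, also lay between the other knockout libraries (13.03% and 12.48%) and those control clones (2.61% to 4.03%). Rpl4, which reaches into the exit tunnel, was 289, 323 and 534 TPM in the 3 knockout libraries and 399, 391 and 390.4 in their control clones, while the 8 control clones of the other runs averaged 766 ± 78.2. The control clones of the other runs were high for Rpl4 and low for Rps12 and Rpl39. No member departed from the family's mean (0 of 79; 0.0238% of all genes; 2 members at an unadjusted p under 0.05). The largest positive departures were 0.65 for Rplp0, 0.46 for Rpl8, 0.41 for Rpl4 and 0.39 for Rps3. The largest negative were -0.59 for Rps12, -0.40 for Rpl39, -0.39 for Rpl23a and -0.34 for Rps29. The median within-group SD of the members was 0.473 in this group on the log2 scale, against 0.0521 in its control clones.

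In the libraries labelled ATF1/CREB1/CREM-KO ribosomal protein mRNAs were lower, by a moderate amount, and 18 of 77 members fell while none rose. The family's share was 3.62%, 3.57% and 4.03% in control clones 9 to 11 and 3.25%, 3.13% and 3.04% in the knockout, without overlap, a ratio of 0.840. Of all 13258 genes 9.17% were called, 5.26% lower and 3.91% higher, against 23.4% of the members. At an unadjusted p under 0.05, 47 members were lower and 1 higher, beside 2063 of all 13258 genes lower and 1519 higher. The median change was -0.30 for the members and -0.05 for all genes. The knockout libraries lay below all 3 control clones for 54 of 77 members (70.1%), against 20.2% of all genes, and above them for 2, Rps10 and Rpl38, against 14.5% of all genes.

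The 18 calls rest on few libraries. Without ATF1/CREB1/CREM-KO replicate 2 or 3, or without control clone 9 or 11, limma called 0 members, without control clone 10 it called 4, and without replicate 1 it called 47 (44 lower, 3 higher). One fit over all 22 libraries called 5, median-ratio scaling 6 and no filter on low values 4, all lower. The count of all genes called moved as well. It was 1216 in the main fit and ran from 185 to 3317 when 1 library was left out. The members' median change stayed between -0.34 and -0.25 when single libraries were left out. The share of mitochondrial genome transcripts was higher in the knockout, 2.31% ± 0.289 of TPM beside 1.28% ± 0.120, and likewise 3.57% ± 0.637 beside 2.22% ± 0.129 in the ATF1/CREB1-KO comparison (SD, n = 3 each). Without these transcripts in the total the family's ratio was 0.849 here and 0.747 there. Some cell type markers were lower too, and not only those of other cell types. The 10 principal cell markers summed to 453 to 1203 TPM in the ATF1/CREB1/CREM-KO libraries and 1361 to 3434 in control clones 9 to 11. Aqp2, which is among them, averaged 15.5 and 1516 TPM. Of 8 principal cell markers tested 1 was called lower and none higher, with 4 changes positive and 4 negative. The summed level of 6 intercalated cell markers was 0.79 to 3.42 TPM in the ATF1/CREB1/CREM-KO libraries and 9.28 to 20.78 in control clones 9 to 11. Most of it was Aqp6, the single marker tested, which fell by 2.21 on the log2 scale (limma adjusted p = 0.0288), while Slc4a1, Slc26a4 and Foxi1 stood at 0.16 TPM or less in all 22 libraries. The 7 stromal, immune and endothelial markers summed to 2.55 to 3.35 and 5.26 to 8.29 TPM, with only the lysosomal gene Cd68 tested, a fall of 1.04 (limma adjusted p = 0.0371), and Col1a2 listed at 0 throughout. The 5 proximal tubule markers summed to 1.38 to 25.45 and 19.98 to 21.57 TPM, mostly from Lrp2, whose change of -2.02 did not pass (limma adjusted p = 0.205), and Slc22a6 was listed at 0. Their part in the result was not tested. In bulk RNA, fewer cells of a kind and less RNA per cell cannot be told apart.

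**Figure D2:**
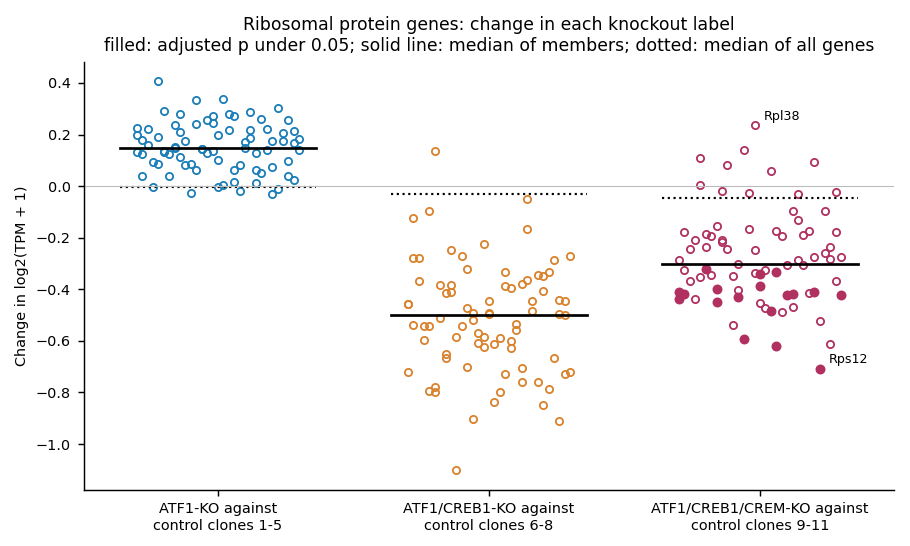
Change of each ribosomal protein gene in log2(TPM + 1) for the 3 knockout labels, each set beside the control clones of the same run. Filled points passed an adjusted p of 0.05 (18, all in ATF1/CREB1/CREM-KO), solid lines are the medians of the members (0.15, -0.50 and -0.30) and dotted lines those of all genes.

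Among members of the small subunit that fell, Rps12 led (ENSMUSG00000061983, chr10:23785183-23787275). It had 251, 218 and 263 TPM in control clones 9 to 11 and 177, 139 and 133 in the knockout. All 3 knockout libraries were below the control clones, a 1.63-fold lower mean, with a change of -0.71 (SE 0.13, limma adjusted p = 0.0254). It missed the threshold under 8 of 13 alternatives, with the same direction in all. Rps23, which lines the decoding centre, went from 192, 181 and 188 to 147, 126 and 128 TPM, with -0.49 (SE 0.09, limma adjusted p = 0.0226). Rps26, near the mRNA exit channel, went from 382, 349 and 438 to 303, 278 and 271 TPM and changed by -0.45 (SE 0.10, limma adjusted p = 0.0451). In neither gene did the groups overlap. Rps4x, the X-linked form of its protein, stood at 293, 285 and 311 and then 212, 238 and 219 TPM, and fell by 0.41 (SE 0.08, limma adjusted p = 0.0281) on the log2 scale. Rps16 and Rps19, the latter mutated in Diamond-Blackfan anemia, were called too.

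In the large subunit Rpl15, a protein of the core laid down early in assembly, went from 181, 179 and 186 TPM in control clones 9 to 11 to 148, 101 and 109.8 in the knockout, a change of -0.62 (SE 0.14, limma adjusted p = 0.046). Rpl23a, at the tunnel exit where the signal recognition particle docks, went from 496, 458 and 533 to 271, 358 and 365 TPM, with -0.59 (SE 0.13, limma adjusted p = 0.0421). In both, replicate 1 stood apart from the other knockout libraries, higher for Rpl15 and lower for Rpl23a, yet below every control clone. Rpl39 had 132, 123 and 137 and then 99.5, 98 and 94.8 TPM and changed by -0.42 (SE 0.08, limma adjusted p = 0.025). Rpl10, which joins the large subunit last, had 363, 359 and 420.0 and then 297, 283 and 277 TPM, with -0.41 (SE 0.09, limma adjusted p = 0.0369). Rpl5 changed by -0.43 (SE 0.09, limma adjusted p = 0.0354) but its partner on Mdm2, Rpl11, differed by -0.25 (SE 0.08, limma adjusted p = 0.109), short of the threshold. Rpl6, Rpl9, Rpl19, Rpl23, Rpl37 and Rpl37a were also called.

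Other members that are often singled out did not pass. Rps6, the S6 kinase substrate, differed by -0.21 (SE 0.08, limma adjusted p = 0.15), Rpsa by -0.18 (SE 0.07, limma adjusted p = 0.165) and Rpl3, near the peptidyl transferase centre, by -0.28 (SE 0.12, limma adjusted p = 0.192). Rps27 and Rps27l had -0.34 (adjusted p = 0.223) and -0.24 (adjusted p = 0.0776). Rpl22 had -0.18 (adjusted p = 0.499) and Rpl36a -0.18 (adjusted p = 0.174). Among reference genes, Rplp0 differed by -0.03 (SE 0.08, limma adjusted p = 0.834), Rps18 by -0.03 (SE 0.10, limma adjusted p = 0.897) and Rpl13a by -0.35 (SE 0.09, limma adjusted p = 0.0655), so Rpl13a lay nearer to the family than the other 2.

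A few members stood above the family. After subtracting the family's mean, 4 of 77 members departed upwards and none downwards, where 17.5% of all genes were called, 15.1% higher and 2.47% lower. The subtraction moved the median of all genes to 0.23, so these shares are no background for the members. Rpl38, a surface protein of the large subunit known for its part in translating Hox mRNAs, had 404, 432 and 448 TPM in control clones 9 to 11 and 495, 518 and 499 in the knockout. It was higher in all 3 knockout libraries, and its departure was 0.51 (SE 0.09, limma adjusted p = 0.0121). It missed the threshold under 3 of 11 alternatives. Without the subtraction its change of 0.24 did not pass (adjusted p = 0.0965). Rps10, near the mRNA entry channel, had 265, 248 and 281 and then 285, 298 and 292 TPM, with a departure of 0.42 (SE 0.09, limma adjusted p = 0.0199). Rps28 and Rpl36 departed by 0.39 (SE 0.09, limma adjusted p = 0.0297) and 0.34 (SE 0.10, limma adjusted p = 0.049). Rpl17 had 0.37 and did not pass (adjusted p = 0.145). At the other end Rps12 was -0.43 from the family's mean (adjusted p = 0.0517), Rpl15 -0.34, Rpl13 -0.33 and Rpl23a -0.31, none of them called. These calls too depend on single libraries: from 0 to 12 members were called when 1 was left out, 12 without replicate 1, and 0 without replicate 2, replicate 3 or control clone 9.

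**Figure D3:**
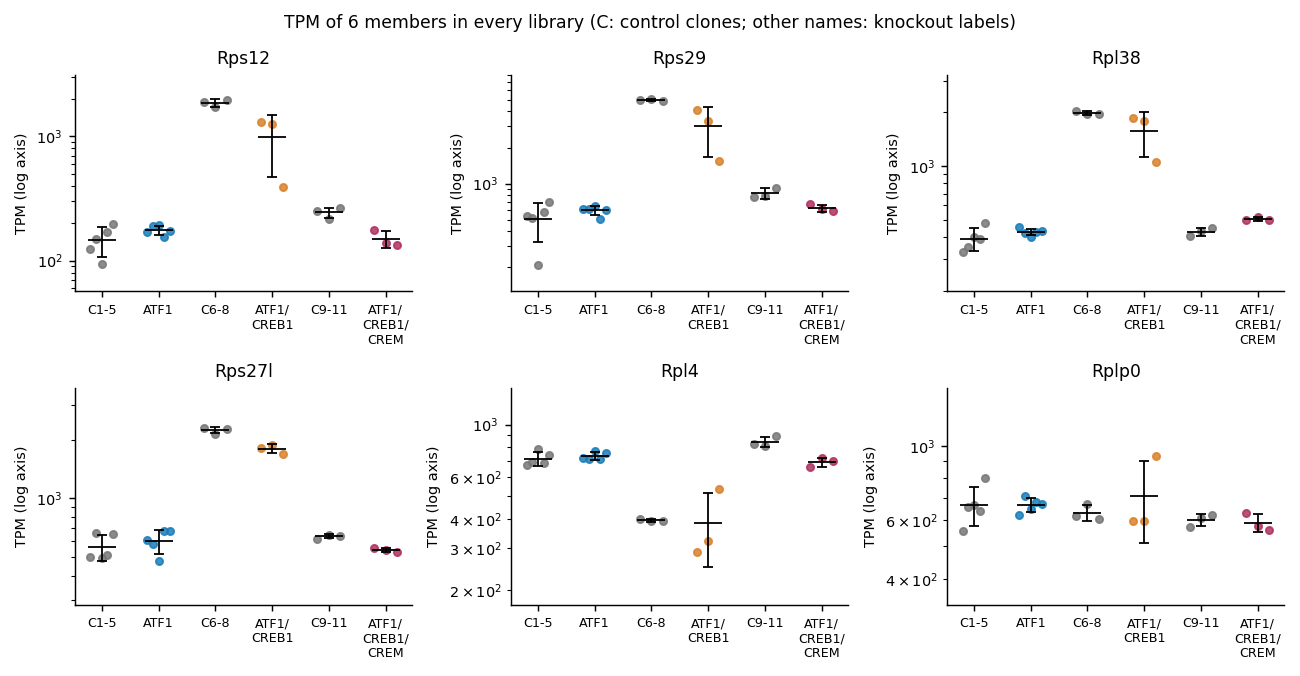
TPM (log axis) of 6 members in every library, with mean and SD per group; C marks control clones and the other names the knockout labels. Rps12 and Rps29 are higher in control clones 6 to 8 than in all libraries of the first and last run, Rpl4 is lower, and Rpl38 is higher in all 3 ATF1/CREB1/CREM-KO libraries than in control clones 9 to 11.

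The members with a full CRE in the promoter window did not pass the test in any knockout comparison. In ATF1/CREB1/CREM-KO their 5 changes ran from -0.61 (Rpl13) to -0.18 (Rpl18) with a median of -0.37, beside -0.33 over the 52 other members with a window that were tested. Rps9, a small-subunit protein of the mRNA entry side, stood at 667, 653 and 752 TPM in control clones 9 to 11 and 493, 590.1 and 523 in the knockout. The groups did not overlap, and the change was -0.37 (SE 0.10, limma adjusted p = 0.0677). Rpl13 stood at 1087, 1058 and 1222 and then 978, 640.2 and 626 TPM, where replicate 1 lay far above the other knockout libraries. Its change was -0.61 (SE 0.18, limma adjusted p = 0.0826). In ATF1/CREB1-KO the medians were -0.54 for the 5 and -0.54 for the 53 others, and in ATF1-KO 0.08 and 0.15. Of the 18 members that fell in ATF1/CREB1/CREM-KO, 16 had a window, 8 with a short core and 8 without. The median changes there were -0.30 with the short core (30 members) and -0.34 without (27).

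Between the 2 knockouts that include CREB1, which share no library, the members' changes were related (Pearson 0.548, Spearman 0.569 across 77 members, which are not independent). No value over other genes, or without replicate 3 of ATF1/CREB1-KO, is given here, so the relation is not shown to be particular to the family. ATF1-KO had -0.189 with ATF1/CREB1-KO and 0.0533 with ATF1/CREB1/CREM-KO. The effects themselves were compared in 1 fit over the 22 libraries, a test added after the data were seen. This fit takes 1 spread from all groups, though the members' median SD was 0.473 in ATF1/CREB1-KO and 0.0521 to 0.216 in the others. Its error for ATF1/CREB1-KO may therefore be too small, and the own-run test there called 0 of 79 members. With that limit, the effect in ATF1/CREB1-KO was below that in ATF1-KO for 7 of 78 members and above it for none (1.46% of all genes called). That in ATF1/CREB1/CREM-KO was below it for 3, near the share of all genes (3.57%). Between ATF1/CREB1/CREM-KO and ATF1/CREB1-KO no member's effect differed by limma (0.188% of all genes). Rps9, Rpl10 and Rps4x were called in both of the first contrasts, with differences of -0.66, -0.65 and -0.49 in ATF1/CREB1-KO and -0.53, -0.61 and -0.48 in ATF1/CREB1/CREM-KO.

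Of the genes around the ribosome, Tpt1, a TOP mRNA that encodes translationally controlled tumor protein, fell in both. It averaged 1583 ± 118 TPM in control clones 6 to 8 and 437 ± 67.3 in ATF1/CREB1-KO (change -1.86, adjusted p = 0.0355). In control clones 9 to 11 it averaged 379.9 ± 14.9 and in ATF1/CREB1/CREM-KO 182 ± 52.9 (change -1.09, adjusted p = 0.0197). It was the only one of 16 TOP and translation genes called in ATF1/CREB1-KO. In ATF1/CREB1/CREM-KO, 3 of 16 fell and none rose, the others being Eef1b2 (-0.36) and Naca (-0.34), with a median of -0.23. Beside these lists, 5.26% of all genes fell and 3.91% rose, with a median of -0.05. Of 27 ribosome biogenesis genes 4 fell and none rose (median -0.24): Dkc1 (-0.66), Nhp2 (-0.52) and Gar1 (-0.45), which encode parts of the RNA pseudouridylation complex, and the nucleolar protein gene Ncl (-0.35). None of 11 RNA polymerase I genes was called (median -0.25), and none of 16 regulators, Mtor, Larp1 and Myc among them. Of the p53 list, Mdm2 (-0.44) and Sesn2 (-0.82) fell out of 10. Rpl22l1, the paralog of Rpl22 (-0.56), fell alone of 7 further ribosome components. Of 78 mitochondrial ribosomal protein genes 1 rose and 3 fell (median -0.03). In ATF1-KO no gene of these lists was called. The lists were fitted once, without the alternatives.

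The largest difference in the family was not with an edit but between control clones. Control clones 6 to 8 gave 14.7% ± 0.487 of their TPM to ribosomal proteins and the other 8 control clones 3.26% ± 0.484, a ratio of 4.53. Limma called 75 of 78 members higher and 1 lower (Rpl6l passed the filter only through these 3 libraries), where 84.9% of all 13334 genes were called, 13.6% higher and 71.2% lower. All 3 libraries lay above all 8 others for 74 members, against 11.5% of all genes, and below them for Rpl4 alone, against 67.4%. The median change was 2.26 for the members and -1.34 for all genes. Median-ratio scaling, which moves the median of all genes to -0.09, gave 3.81 for the members and called all 78 higher, and quantile normalization gave 1.55. The clone and the run cannot be told apart here, since all 3 clones belong to 1 run.

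**Figure D4:**
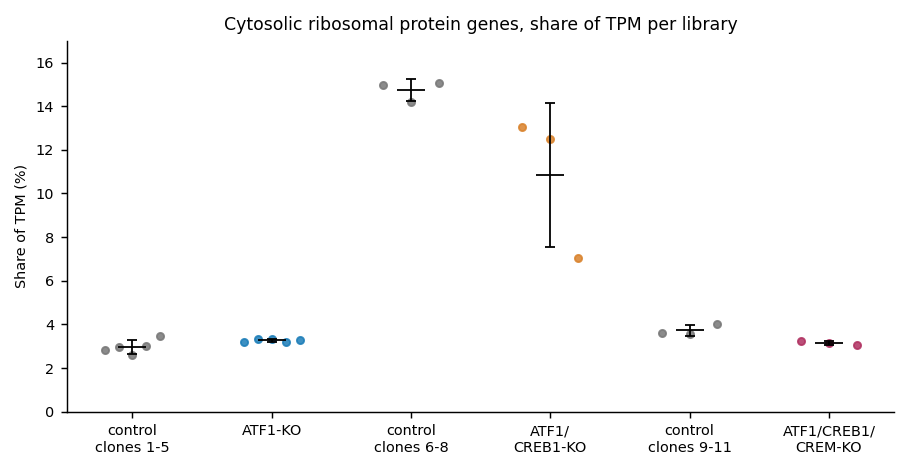
Share of TPM held by the 83 ribosomal protein genes in each library, by group, with mean and SD. Control clones 6 to 8 lie at 14.18% to 15.06%, the ATF1/CREB1-KO libraries at 13.03%, 12.48% and 7.05%, and all libraries of the other 2 runs at or below 4.03%.

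The rise was uneven among members. Rps12 had 1875, 1708 and 1961 TPM in control clones 6 to 8, but 125, 149.6, 94.3, 168 and 198 in control clones 1 to 5 and 251, 218 and 263 in control clones 9 to 11. That is a 10.1-fold higher mean, and a change of 3.40 (SE 0.26, limma adjusted p = 3.95e-08). Rps20, Rpl39, Rps21 and Rps29 came next, with 3.22, 3.13, 3.11 and 3.09. At the other end Rpl4 had 399, 391 and 390.4 TPM in control clones 6 to 8, below all of 677, 697, 791, 686 and 740.2 in control clones 1 to 5 and 829, 814 and 894 in control clones 9 to 11. Its change was -0.95 (SE 0.09, limma adjusted p = 4.02e-07), and 0.60 (higher) under median-ratio scaling. Rplp0 had 615, 673 and 604 TPM beside 557, 659, 665, 637 and 802 and 571, 608 and 623, with overlapping groups and -0.02 (SE 0.10, limma adjusted p = 0.891). Rpl3 differed by 0.13 (SE 0.17, limma adjusted p = 0.48). Among the named members Rps6 rose by 0.68, Rps4x by 1.21, Rpsa by 1.85, Rps27l by 1.93, Rpl13a by 2.26, Rps27 by 2.38, Rpl36a by 2.43, Rps18 by 2.52 and Rpl22 by 2.58 on the log2 scale. Rpl10 had a 2.78-fold higher mean (adjusted p = 8.71e-07).

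Relative to the family's mean, 28 members were higher and 18 lower, 46 of 78 in all, where 95.1% of all genes were called (0.472% higher, 94.6% lower). The subtraction shifted every other gene by the family's own change, to a median of -3.45 for all genes. Those shares are therefore no background for the members. Rpl4 was -3.06 from the family, Rplp0 -2.12, Rpl3 -1.98 and Rps6 -1.43. Rps12 was 1.29 above it, Rps20 1.11, Rpl39 1.02 and Rps21 1.00. The members' change ran with the length of their coding sequence (longest annotated, GENCODE M21): Pearson -0.758 and Spearman -0.747 across 77 members, beside -0.409 and -0.341 across 11114 other genes. The 9 members under 300 bases had a median change of 2.87, and the 231 other genes of that length 1.32. The 18 members from 600 to under 900 bases had 1.78 and the other genes -1.04. The 2 members of 1200 bases or more are Rpl3 and Rpl4, with 0.13 and -0.95 beside a median of -1.80 for the other genes. In every length class the members' median lay above that of the other genes. The part of RNA length or library preparation in this was not tested.

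**Figure D5:**
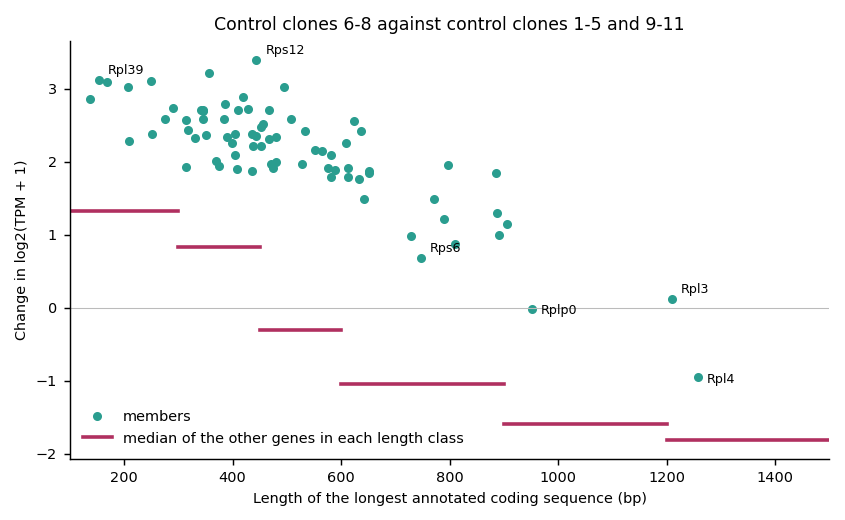
Change in log2(TPM + 1) of 77 members from the other 8 control clones to control clones 6 to 8, by length of the coding sequence, with the median of all other genes in each length class (bars, the longest class cut at the axis). Rpl39, among the shortest, and Rps12, of middle length, rose by more than 3, and Rplp0, Rpl3 and Rpl4, the longest, lay near or below 0.

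In the 2 own-run comparisons of the CREB1 knockouts the relation with length differed. Across the same 77 members it was 0.462 (Pearson) in ATF1/CREB1-KO, while across 10651 other genes it was -0.220, of the opposite sign. In ATF1/CREB1/CREM-KO it was -0.0863 (0.000707 across other genes) and in ATF1-KO -0.289 (-0.00611). Among the lists around the ribosome in control clones 6 to 8, 6 of 7 further ribosome components rose and 1 fell, and 48 of 78 mitochondrial ribosomal protein genes rose and 22 fell, where 13.6% of all genes rose and 71.2% fell. Of 27 biogenesis genes 23 fell and 2 rose, and of 11 RNA polymerase I genes 9 fell and 2 rose, shares near that of all genes. Of the 49 named ribosomal protein pseudogenes tested, 38 rose and 2 fell. The filter on low values includes control clones 6 to 8, so some may have passed it only through these libraries. The count is therefore no support for a rise. The summed share of these pseudogenes was 0.213% ± 0.0134 beside 0.0586% ± 0.00747 in the other control clones.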

How the data were processed

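RNA of mpkCCD cells was turned into cDNA with a SMARTer low-input kit and into libraries with Nextera XT, and sequenced as 50-base read pairs, per the labels' protocols. The submitters' processing notes name STAR and RSEM; versions, genome build and annotation are not given in the sources used here. The authors deposited 1 table of TPM for 55414 genes and 22 libraries, each column scaled to the same total; counts were not used here, so depth is unknown and no count test was run.

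Changes were fitted with limma 3.58.1 (R 4.3.3, eBayes with trend) on log2(TPM + 1) after leaving out genes averaging under 1 TPM in the 2 groups, with Benjamini-Hochberg adjustment over all genes and a threshold of 0.05. A change on this scale understates that of low genes. A second fit first subtracted from each library the mean log2 value of the 78 members averaging 1 TPM or more across the 22 libraries. This shifts every other gene by the family's own change. Shares of all genes called in that fit are therefore no background for the members, and its adjustment ran over the shifted genes. Named genes were a fixed set of members, the most changed and most departing members per comparison, and the highest and lowest; Rps9, Rpl12, Rpl13, Rps16, Rps19 and others of the called list were named after their values were seen. Values of some single members are not reported here. Members and lists were chosen with earlier results of these data known. The fits were tested on simulated data. Alternatives are given in the closing section.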

Additional observations from a re-analysis of the deposited data

Results flagged for a closer look

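Of 28 groups of 4 or more libraries tested for a stray value, 2 held one, and chance gives about 1 in 20. Rpl3 stood at 197.55 TPM in control clone 3, below the other 4 control clones of its run. Rpl36a stood at 126.61 TPM in control clone 5, above the other 4. Among these control clones the whole family's share was also lowest in control clone 3 (2.61%) and highest in control clone 5 (3.45%).

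The effects of knockout labels on some members differed by limma in 1 fit over the 22 libraries, where 1.46% of all genes were called in the first contrast below and 3.57% in the second. The members' 3 of 78 in the second is near that share. The fit takes 1 spread from all groups, while members varied most in ATF1/CREB1-KO (median within-group SD 0.473 on the log2 scale). The own-run test of ATF1/CREB1-KO called 0 of 79 members. The effect in ATF1/CREB1-KO minus that in ATF1-KO was -1.01 for Rps27a, -0.94 for Rps23, -0.70 for Rpl32, -0.66 for Rps9, -0.65 for Rpl10 and -0.49 for Rps4x on the log2 scale. The effect in ATF1/CREB1/CREM-KO minus that in ATF1-KO was -0.61 for Rpl10, -0.53 for Rps9 and -0.48 for Rps4x.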

How the results depend on the processing

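For ATF1-KO and ATF1/CREB1-KO, 0 members were called under all alternatives except 1 fit over all 22 libraries, which called 18 (all lower) in ATF1/CREB1-KO. All genes called in ATF1/CREB1-KO were 9 in the main fit and ran from 0 to 4260 over the alternatives. The share for that 1 fit is not given here. In ATF1/CREB1/CREM-KO, 18 calls became 4 with no filter on low values, 5 in the fit over all 22 libraries, 6 with median-ratio scaling and 0 against all 11 control clones, and lay between 0 and 47 when 1 library was left out. All genes called in this comparison were 1216 in the main fit and ran from 137 to 3317 over the alternatives. The departures from the family's mean, 4 in the main fit, became 1 in the fit over all 22 libraries and lay between 0 and 12 when 1 library was left out. Between control clones, 75 to 78 members were called under all alternatives run, and Rpl4 turned from lower to higher with median-ratio scaling (0.60). Against all 11 control clones the members' median was -0.57 in ATF1-KO, 1.08 in ATF1/CREB1-KO and -0.66 in ATF1/CREB1/CREM-KO, since that set mixes the runs. Replicate numbers did not pair the libraries (correlations of same-numbered deviations from -0.103 to 0.0843), and the fit with the replicate block called 0 members in ATF1-KO; the other comparisons share no replicate numbers. The causes of these changes were not tested. Depth is unknown, and 3 libraries a group limit the precision.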

Other observations

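Rpl24 and Rpl26, chosen here after their values were seen, varied between replicates of both CREB1 knockouts. In ATF1/CREB1-KO the family as a whole varied, with a median within-group SD of 0.473 on the log2 scale. Measured from the family's mean, the largest SD there was that of Rpl4, 0.892. Rpl24, which bridges the subunits, had 109.7, 221 and 219 TPM in the ATF1/CREB1/CREM-KO libraries and 231, 242 and 264 in control clones 9 to 11. In the ATF1/CREB1-KO libraries it had 512, 821 and 496, beside 873, 890.3 and 938 in control clones 6 to 8. Rpl26, at the tunnel exit, had 179, 374 and 339.8 beside 387, 395 and 443, and 600.4, 1159.7 and 838 beside 1437, 1419.8 and 1474. Rpl26 was lowest in replicate 1 of both knockouts, and Rpl24 in replicate 1 of ATF1/CREB1/CREM-KO and in replicates 1 and 3 of ATF1/CREB1-KO. Neither passed the test in either comparison. Measured from the family's mean in each library, the SD of Rpl24 over the ATF1/CREB1/CREM-KO libraries was 0.599 on the log2 scale, the largest among 78 members. In Rpl8 the groups overlapped in both: 2279, 2769 and 1718 TPM in ATF1/CREB1-KO beside 2239.8, 2570.2 and 2083, and 627, 799 and 763 in ATF1/CREB1/CREM-KO beside 695, 816 and 701. Rps25 separated the first run from the last among unmodified clones, with 644, 729, 659.9, 594 and 753 TPM in control clones 1 to 5 and 1397, 1416 and 1507 in control clones 9 to 11. This was not particular to Rps25. The family's share was 2.61% to 3.45% in control clones 1 to 5 and 3.57% to 4.03% in control clones 9 to 11. Rpl32 did not overlap between them either, while Rplp0 did. The separation was not counted over all members or all genes.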
